A study of Mus musculus with 16 samples.

Results

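The interleukin-1 system was followed through 9 genes in HM1 tumours, a transplantable mouse ovarian cancer model, with and without mannose, a simple sugar given as a supplement. The genes were taken by symbol: the ligands Il1a, Il1b and Il18, the antagonist Il1rn, the receptor genes Il1r1, Il1r2 and Il1rap, and the inflammasome genes Nlrp3 and Casp1. All 9 were found among the 53112 symbols of the tumour tables and the 55290 symbols of the CD8 tables. RNA was sequenced from whole tumour tissue of mannose-supplemented mice (5 libraries) and controls (5 libraries). Sorted tumour-infiltrating CD8 T cells gave 3 further libraries with mannose and 3 control libraries. The study's title concerns antibody blockade of PD-1, but the labels of these samples name no antibody, strain, age, sex or dose, and do not tie a replicate to an animal. P-values therefore measure only the spread between these samples, which may be technical. All levels are TPM (transcript abundance corrected for transcript length and scaled to a common total in each library), as the authors deposited them, and the read depth behind them is unknown.

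Interleukin-1 alpha and interleukin-1 beta are inflammatory cytokines, the latter made above all by macrophages, monocytes and neutrophils. Both bind the receptor IL1R1, which recruits the accessory chain IL1RAP and signals through MYD88 and IRAK kinases to NF-kappaB. Signalling is held back by a soluble antagonist (Il1rn) that occupies IL1R1 and a decoy receptor (Il1r2) that binds ligand without signalling. Interleukin-1 beta and interleukin-18 are made as inactive precursors that caspase-1 cuts after it has been activated by an inflammasome such as NLRP3. RNA levels report neither that cutting nor secretion.

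The 250 bases before the annotated start of 4 of the genes are shown because they stand at the ends of the response in the CD8 libraries: Nlrp3, Il1b and Il1a had the largest falls and Il1r1 the largest rise among the 9. They are RefSeq sequences of build GRCm38.p6, read 5′ to 3′ on the gene's strand, and capitals mark matches to the motifs searched. The windows are chr11:59542436-59542685 (plus strand) for Nlrp3, chr2:129371140-129371389 (minus strand) for Il1b, chr2:129309973-129310222 (minus strand) for Il1a and chr1:40224830-40225079 (plus strand) for Il1r1. For Nlrp3 and Il1r1 the first of 2 annotated windows is given.
Nlrp3: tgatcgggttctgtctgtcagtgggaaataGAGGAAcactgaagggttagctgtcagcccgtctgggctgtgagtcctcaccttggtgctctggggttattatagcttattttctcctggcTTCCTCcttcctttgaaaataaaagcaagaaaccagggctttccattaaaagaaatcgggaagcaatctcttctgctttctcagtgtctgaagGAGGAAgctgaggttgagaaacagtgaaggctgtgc
Il1b: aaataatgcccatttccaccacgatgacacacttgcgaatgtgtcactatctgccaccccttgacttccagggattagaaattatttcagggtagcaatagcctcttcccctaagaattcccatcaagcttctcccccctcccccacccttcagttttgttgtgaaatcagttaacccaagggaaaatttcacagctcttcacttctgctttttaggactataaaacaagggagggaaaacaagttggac
Il1a: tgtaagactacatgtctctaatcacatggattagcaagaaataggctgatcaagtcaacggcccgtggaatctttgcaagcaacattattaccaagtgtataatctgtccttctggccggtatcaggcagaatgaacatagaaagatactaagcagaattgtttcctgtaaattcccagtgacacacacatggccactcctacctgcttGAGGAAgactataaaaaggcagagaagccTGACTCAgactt
Il1r1: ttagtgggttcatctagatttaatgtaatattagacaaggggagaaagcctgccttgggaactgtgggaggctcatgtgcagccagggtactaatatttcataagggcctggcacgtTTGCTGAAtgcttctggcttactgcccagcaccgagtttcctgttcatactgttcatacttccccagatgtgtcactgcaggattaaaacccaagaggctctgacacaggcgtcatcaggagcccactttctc
The motifs were GAGGAA (PU.1, a myeloid factor), TGANTCA (AP-1), TTGCNNAA (C/EBP), kappaB (3 G, any 5 bases, 2 C) and IRF (GAAA, any 2 bases, GAAA), each on both strands. The Nlrp3 window held 3 PU.1 matches, beginning at positions -220, -129 and -36 from the start, the middle one on the opposite strand. The Il1a window held a PU.1 match at -41 to -36 and an AP-1 match at -12 to -6, and the Il1r1 window held a C/EBP match at -133 to -126. In the Il1b window none of the 5 patterns was found. Over the 13 windows of the 9 genes, PU.1 matched in 3 windows, AP-1 in 2, C/EBP in 1, kappaB in 6 (of 5 genes) and IRF in 0. The same patterns occurred in 23.3%, 6.75%, 9.56%, 45.8% and 2.98% of 32851 windows of that length. A match is a run of letters and no evidence of binding.

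Some libraries limit what follows. In the 3 tables labelled as CD8 controls, the column header names a mannose sample, and groups follow the labels here. CD8 mannose libraries 1 and 2 were near identical in their use of T cell receptor beta V segments (r = 0.995 over 35 segments), as were CD8 control libraries 1 and 2 (r = 0.999), while the other pairs lay between 0.267 and 0.763. The labels do not say whether such pairs share a tumour, so the CD8 tests are also given with both pairs averaged into 1 library each. Tumour control 1 correlated least with the other tumours (mean r = 0.947) and had the fewest symbols at 1 TPM or more (12345, against 13820 in the highest tumour). Among the tumours it also had the lowest mitochondrial share of TPM (1.50%) and the highest share in ribosomal protein genes (27.6%). The sorted libraries held all 9 T cell markers, with a summed 2376 to 4614 TPM with mannose and 4584 to 4946 TPM in controls, but also RNA of other cells. Summed over 12 macrophage and monocyte markers they held 1257 to 1575 TPM with mannose and 4300 to 4644 TPM in controls. Over 6 epithelial markers the sums were 1608 to 2459 TPM with mannose and 236 to 530 TPM in controls. In bulk RNA, fewer cells of a type and less RNA per cell cannot be told apart.

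In the sorted CD8 libraries the interleukin-1 cytokines, their antagonist, the decoy receptor and Nlrp3 fell together with mannose while the signalling receptor Il1r1 rose. Of the 9 genes 5 fell (Nlrp3, Il1b, Il1a, Il1r2 and Il1rn), 2 rose (Il1r1 and Casp1) and 2 did not pass (Il18 and Il1rap), by limma at an adjusted p under 0.05. Across all 14280 genes tested, 34.9% passed, 11.7% as falls and 23.2% as rises, so a passing gene was common in these libraries. The median log2 difference was -1.99 over the 9 genes and 0.09 over all genes.

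Il1b, the main secreted ligand, had 387, 298 and 393 TPM in CD8 mannose libraries, against 1858, 1812 and 2039 TPM in CD8 controls. Every control library lay far above every mannose library. The mean was 359 ± 52.9 TPM with mannose and 1903 ± 120 TPM in controls (SD, n = 3 each), 5.30-fold lower with mannose. On log2(TPM + 1), the scale of every log2 difference here, it changed by -2.41 (standard error 0.122, 95% confidence interval -2.70 to -2.12, limma adjusted p = 2.03e-04). Il1a, the ligand that is active without cutting, had 43.9, 34.9 and 30.1 TPM with mannose and 179, 164 and 222 TPM in controls. Its groups did not overlap either, and its log2 difference of -2.35 (standard error 0.167, limma adjusted p = 3.1e-04) was close to that of Il1b. The ratio of Il1a to Il1b hardly moved, with mean log2 ratios of -3.28 ± 0.33 with mannose and -3.34 ± 0.13 in controls (exact permutation p = 0.8, 2-sided).

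Il18, the third ligand, behaved otherwise. It had 8.03, 10.0 and 5.92 TPM with mannose and 9.79, 10.3 and 12.0 TPM in controls. The groups overlapped, and the log2 difference of -0.40 did not pass (95% confidence interval -0.85 to 0.06, limma adjusted p = 0.151).

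Il1rn, which encodes the receptor antagonist, had 132, 98.9 and 104 TPM with mannose and 394, 377 and 585 TPM in controls. Mannose libraries all lay below controls, with a log2 difference of -1.99 (standard error 0.192, limma adjusted p = 0.00114). Antagonist and ligand thus both fell. The TPM ratio of Il1rn to Il1b was 0.341, 0.332 and 0.264 with mannose, against 0.212, 0.208 and 0.287 in controls. These ranges overlapped, and the difference of 0.42 in log2 ratio gave an exact permutation p of 0.2 (2-sided), where 3 against 3 libraries cannot go below 0.1.

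The receptors moved in opposite directions. Il1r2, the decoy, had 70.1, 61.0 and 77.2 TPM with mannose and 301, 286 and 377 TPM in controls, a log2 difference of -2.19 (standard error 0.134, limma adjusted p = 2.41e-04). Il1r1, the signalling chain, had 11.2, 10.1 and 7.45 TPM with mannose and 3.42, 3.31 and 1.65 TPM in controls, a log2 difference of 1.50 (standard error 0.251, limma adjusted p = 0.00523). Neither gene's groups overlapped. Decoy RNA stood at 6.24, 6.05 and 10.4 times signalling receptor RNA with mannose, against 88.1, 86.3 and 229 times in controls. The control ratios divide by Il1r1 levels of 3.42 TPM or less, the 229 by 1.65 TPM, so their size is uncertain. The log2 ratio was 2.75 ± 0.40 with mannose and 6.44 ± 0.63 in controls, a difference of -3.69 (exact permutation p = 0.1, the smallest possible here). Il1rap, the accessory chain, differed little, with 15.7, 14.9 and 15.1 TPM with mannose and 14.8, 13.2 and 12.9 TPM in controls. Its log2 difference was 0.15 (95% confidence interval -0.10 to 0.40, limma adjusted p = 0.322).

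Of the inflammasome pair, Nlrp3, the sensor, had 19.4, 17.6 and 25.2 TPM with mannose and 117, 109 and 139 TPM in controls. Its log2 difference of -2.51 (standard error 0.155, limma adjusted p = 2.41e-04) was the largest among the 9 genes. Casp1, the protease, had 46.7, 40.9 and 49.9 TPM with mannose and 34.9, 38.3 and 36.0 TPM in controls, higher in every mannose library by a log2 difference of 0.32 (limma adjusted p = 0.0472). That call for Casp1 was lost in 7 of 10 alternative settings, among them the pairs averaged (adjusted p = 0.144). The TPM ratio of Nlrp3 to Casp1 was 0.415, 0.430 and 0.504 with mannose and 3.36, 2.84 and 3.86 in controls (exact permutation p = 0.1, the smallest possible). Sensor RNA was thus below protease RNA in every mannose library and above it in every control.

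**Figure D1:**
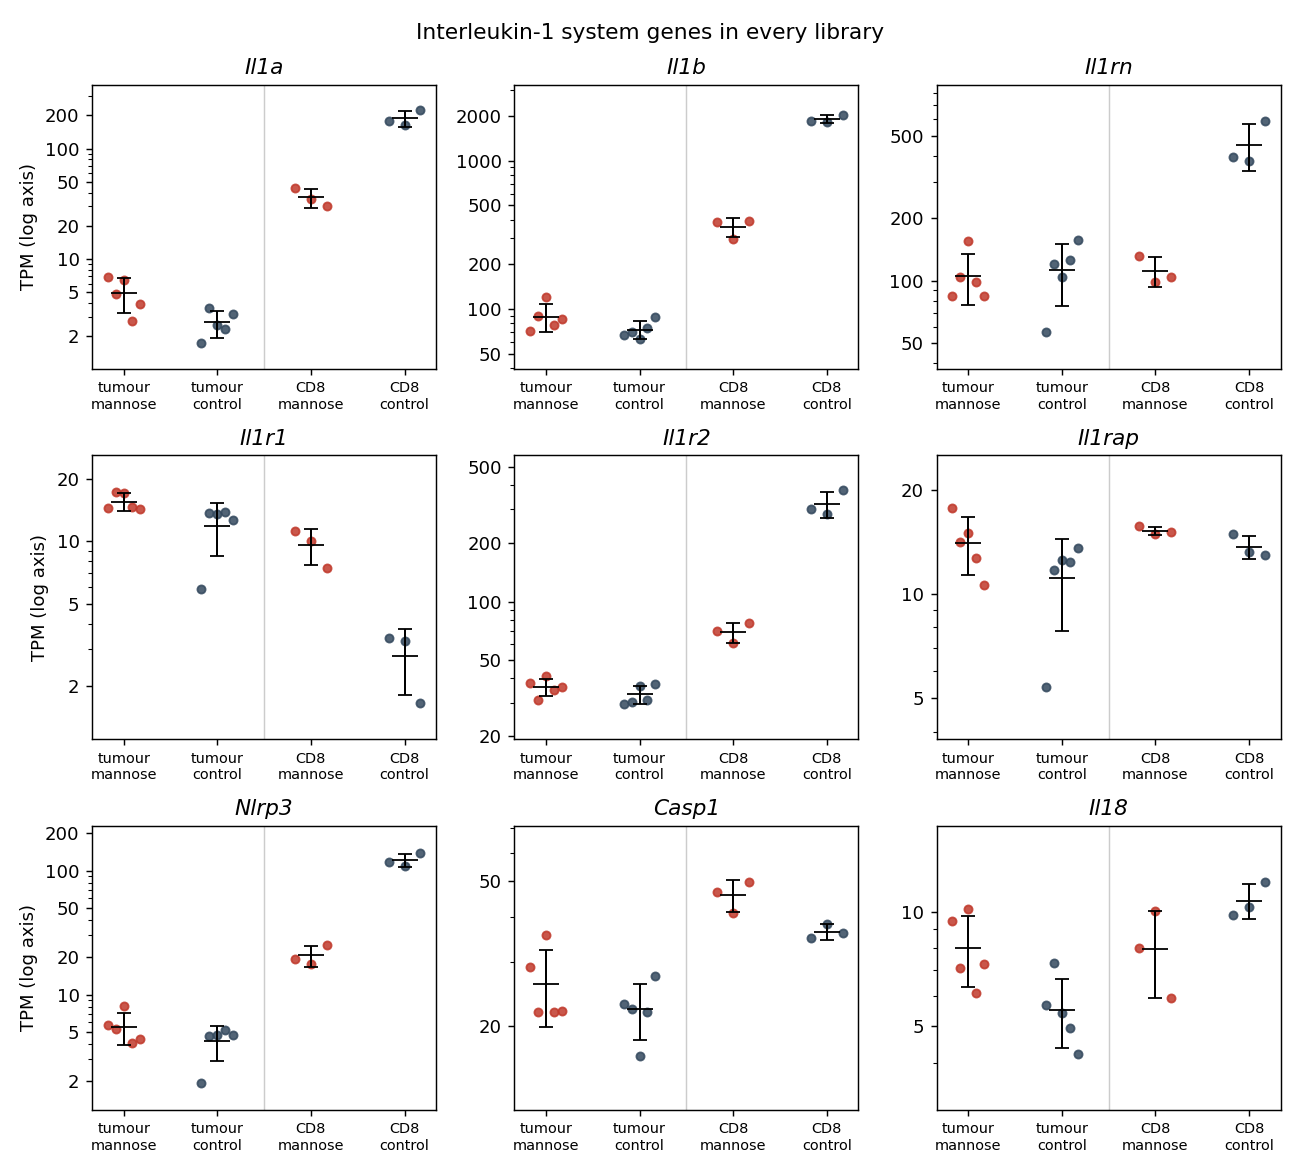
TPM of the 9 genes on log axes, 1 panel a gene. Each point is a library, horizontal bars are group means and error bars are the SD (5 libraries a group in tumours, 3 in CD8 libraries); Il1b in CD8 libraries averaged 359 TPM with mannose and 1903 TPM in controls, while Il1r1 ran the other way at 9.59 and 2.79 TPM.

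With each sharing pair of CD8 libraries averaged, 6 of the 9 genes passed, where 1652 of 14459 genes did (11.4%, 3.88% as falls and 7.55% as rises). Il1b differed by -2.40 (limma adjusted p = 0.00989), Nlrp3 by -2.48 (0.0112), Il1a by -2.47 (0.0112), Il1r2 by -2.21 (0.0106) and Il1rn by -2.11 (0.0177), each an adjusted p. Il1r1 passed narrowly, with a log2 difference of 1.55 (limma adjusted p = 0.0494). Casp1 at 0.36, Il18 at -0.52 (limma adjusted p = 0.226) and Il1rap at 0.16 (0.526) did not pass. The log2 ratio of decoy to signalling receptor then differed by -3.75, that of Nlrp3 to Casp1 by -2.84, that of Il1rn to Il1b by 0.29 and that of Il1a to Il1b by -0.07, and 2 against 2 libraries cannot give an exact permutation p below 0.333. In 8 of the 9 genes, Il18 apart, the libraries of the groups did not overlap, 5 lower and 3 higher with mannose, but this held for 51.4% of all genes tested, 18.1% as lower and 33.3% as higher.

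Macrophage and monocyte markers moved with the 5 genes that fell. Marker counts are read against the 11.7% of all genes that passed as falls and the 23.2% that passed as rises in CD8 libraries. All 12 markers fell in the CD8 mannose libraries, by log2 differences of -2.22 to -1.08 (median -1.82), and none was at 0 in either group. Of 7 neutrophil markers tested 5 fell, with summed levels of 107 to 203 TPM with mannose and 313 to 670 TPM in controls, though Ly6g, Camp and Ngp stayed under 1 TPM throughout. Of 5 dendritic cell markers tested 3 fell, and 2 of 9 T cell markers fell (median -0.64). Clec9a, among the dendritic cell markers that fell, was under 1 TPM in every CD8 mannose library. It met the filter of 1 TPM in 3 libraries through the controls alone. The monocyte receptor Csf1r had 46.7 ± 4.58 TPM with mannose and 178 ± 15.3 TPM in controls, a log2 difference of -1.91 (limma adjusted p = 2.28e-04). Cd14, the lipopolysaccharide coreceptor of monocytes, changed by -2.07 (limma adjusted p = 2.51e-04). Il1b measured against them within each library gave mean log2 ratios to Csf1r of 2.91 ± 0.34 with mannose and 3.42 ± 0.20 in controls (exact permutation p = 0.1, groups not overlapping). To Cd14 the ratios were 1.14 ± 0.19 with mannose and 1.49 ± 0.14 in controls (exact permutation p = 0.2). Beside the rise of Il1r1, 5 of 6 fibroblast markers rose (summed 192 to 259 TPM with mannose, 35.1 to 101 TPM in controls). Among them Pdgfra was under 1 TPM in every CD8 control and met that filter through the mannose libraries alone. Of the 4 epithelial markers tested 3 rose too, while the fourth, the cadherin Cdh1, fell (-1.33, limma adjusted p = 0.00269). Of 4 endothelial markers 2 rose, Cdh5 (1.20, limma adjusted p = 0.0350) and Emcn (1.53, 0.0399), with sums of 66.6 to 130 TPM with mannose and 66.1 to 85.6 TPM in controls. With the pairs averaged 10 of 12 macrophage and monocyte markers and 2 of 7 neutrophil markers fell, 3 epithelial markers rose and Cdh1 fell. No dendritic cell, T cell, fibroblast or endothelial marker passed in that fit, where 3.88% of all genes passed as falls and 7.55% as rises. The log2 ratio of Il1b then differed by -0.48 to Csf1r and by -0.25 to Cd14. The mitochondrial share of TPM was 4.61% to 5.11% with mannose and 3.93% to 4.43% in controls. The part of these cells, or of RNA quality, in the changes was not tested.

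In whole tumours none of the 9 genes passed. No gene of the 13282 tested passed there (0%), the smallest adjusted p being 0.754, and 6.23% had an unadjusted p under 0.05 (5.53% with a higher level in mannose tumours). Among the 9 genes this was true of 2, Il1a and Il18, both higher with mannose. The log2 differences were positive in 8 of the 9, Il1rn being the exception, as they were in 74.4% of all genes. Their median was 0.32, beside 0.12 over all genes.

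Il1a had 6.92, 4.83, 6.46, 2.76 and 3.95 TPM in mannose tumours, against 1.73, 3.60, 2.55, 2.35 and 3.19 TPM in control tumours. In 4 of 5 mannose tumours it exceeded every control, and the means were 4.98 ± 1.73 TPM with mannose and 2.68 ± 0.731 TPM in controls (SD, n = 5 each). The log2 difference was 0.67 (95% confidence interval 0.18 to 1.16, limma adjusted p = 0.754). Il18 had 9.44, 7.12, 10.1, 6.10 and 7.28 TPM with mannose and 5.68, 7.32, 5.40, 4.95 and 4.23 TPM in controls, a log2 difference of 0.47 (standard error 0.170, limma adjusted p = 0.754). For Il18 only 2 mannose tumours lay above every control. Il1b had 70.8, 90.2, 120, 77.8 and 86.3 TPM with mannose and 66.9, 70.3, 63.2, 74.6 and 88.7 TPM in controls. These groups overlapped broadly, with a log2 difference of 0.28 (95% confidence interval -0.05 to 0.60, limma adjusted p = 0.754).

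Il1rn had 84.8, 104, 156, 99.0 and 84.1 TPM in mannose tumours and 56.4, 120, 104, 125 and 157 TPM in control tumours. Its log2 difference was -0.06 (95% confidence interval -0.62 to 0.50, limma adjusted p = 0.958), and the highest and lowest values were both in controls. The TPM ratio of Il1rn to Il1b was 1.20, 1.15, 1.29, 1.27 and 0.974 with mannose and 0.842, 1.71, 1.65, 1.68 and 1.77 in controls. The difference in mean log2 ratio of -0.33 did not pass (exact permutation p = 0.190, 2-sided). Without tumour control 1 the difference was -0.53 with groups that did not overlap (unadjusted exact permutation p = 0.00794, the smallest possible). With any other tumour left out the groups overlapped, and the exact permutation p was 0.198 to 0.318. The difference thus depends on that 1 library.

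Il1r1 had 14.5, 17.4, 17.2, 14.6 and 14.3 TPM in mannose tumours and 5.88, 13.7, 13.5, 13.8 and 12.6 TPM in control tumours. It was the 1 gene of the 9 whose tumour groups did not overlap, every mannose tumour exceeding every control. Groups did not overlap in 1.63% of all genes, and in 1.51% the mannose tumours were the higher ones. The log2 difference of 0.41 did not pass (95% confidence interval -0.04 to 0.87, limma adjusted p = 0.754). Without tumour control 1 it was 0.20. Il1r2 ranged from 31.0 to 41.1 TPM with mannose and from 29.6 to 37.3 TPM in controls, and Il1rap from 10.6 to 17.8 TPM with mannose and from 5.38 to 13.6 TPM in controls. Decoy RNA exceeded signalling receptor RNA in every tumour, at 2.62, 1.78, 2.39, 2.37 and 2.53 times with mannose and 5.04, 2.22, 2.71, 2.24 and 2.95 times in controls. The mean log2 ratio was 1.16 ± 0.21 with mannose and 1.44 ± 0.43 in controls (exact permutation p = 0.262).

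Nlrp3 ranged from 4.07 to 8.03 TPM in mannose tumours and from 1.94 to 5.21 TPM in control tumours, and Casp1 from 21.9 to 35.7 TPM with mannose and from 16.6 to 27.6 TPM in controls. Their log2 differences of 0.32 and 0.21 did not pass (limma adjusted p = 0.768 and 0.785). Without tumour control 1 and tumour mannose 3, which stood apart in an earlier analysis, none of the 9 genes passed and most differences shrank. Il1a was then at 0.48, Il18 at 0.40, Il1r1 at 0.16, Il1b at 0.13, Casp1 and Il1rap at 0.11, Il1r2 at 0.05, Nlrp3 at 5.62e-05 and Il1rn at -0.43 on the log2 scale. Among macrophage and monocyte markers in whole tumours 0 of 12 passed, with a median difference of 0.53 on the log2 scale and summed levels of 2214 to 4565 TPM with mannose and 1651 to 2882 TPM in controls.

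Measured against a pair of myeloid markers, Il1b gave ratios that separated the tumour groups before correction for multiple tests. Il1b stood at 1.40, 1.67, 1.41, 1.13 and 1.30 times Cd14 in mannose tumours and at 0.974, 1.01, 0.921, 1.06 and 1.05 times in control tumours. The mean log2 ratio differed by 0.44 without overlap (exact permutation p = 0.00794, 2-sided, the smallest possible; Benjamini-Hochberg adjusted over 14 ratio tests 0.0556). Against S100a8, a neutrophil calgranulin, Il1b stood at 8.32, 6.58, 5.97, 2.71 and 2.78 times with mannose and 1.15, 1.80, 2.72, 1.85 and 2.23 times in controls. Its log2 ratio differed by 1.30 (exact permutation p = 0.00794, adjusted 0.0556). S100a8 itself had 20.4 ± 9.62 TPM with mannose and 40.1 ± 12.4 TPM in controls (log2 difference -1.02, unadjusted p = 0.0102, limma adjusted p = 0.754), and S100a9 differed by -0.91, Cd14 by -0.17 and Il1b by 0.28. Of 6 neutrophil markers tested in tumours 0 passed, with a median of -0.09 and sums of 48.1 to 147 TPM with mannose and 119 to 248 TPM in controls. The part of neutrophil RNA in the ratio was not tested. Neither ratio passed the correction. Both already had the smallest p possible, and the CD8 tests among the 14 cannot go below 0.1. The ratios to Cd14 and S100a8 were added to the planned pair with earlier results of these data known, which limits their unadjusted p-values. The TPM ratios to S100a8 touched, 2.71 in mannose tumour 4 lying just under 2.72 in control tumour 3, although the log2 ratios of TPM + 1 did not overlap. Against Csf1r the groups overlapped (log2 difference -0.30, exact permutation p = 0.603).

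**Figure D2:**
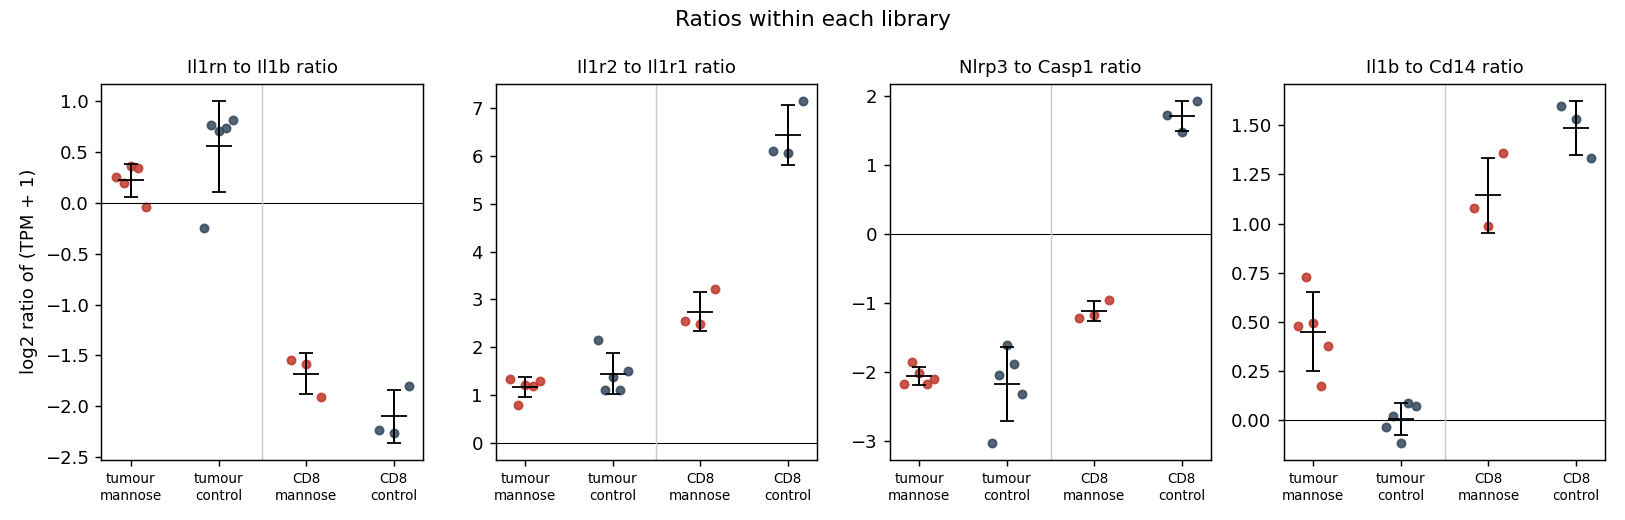
Log2 ratios of TPM + 1 within each library; points are libraries and bars are group means with SD (5 libraries a group in tumours, 3 in CD8 libraries). The ratio of the decoy receptor to the signalling receptor averaged 2.75 with mannose and 6.44 in controls in the CD8 libraries, and 1.16 and 1.44 in tumours.

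The mannose difference was not the same in sorted cells and tumours. In a limma fit of all 16 libraries the CD8 difference minus the tumour difference passed for 7 of the 9 genes, 6 lower and 1 higher, where 18.7% of 15498 genes passed, 7.64% as lower and 11% as higher. This interaction was -3.02 for Il1a (limma adjusted p = 6.28e-05), -2.83 for Nlrp3 (1.02e-04), -2.69 for Il1b (6.13e-06), -2.32 for Il1r2 (6.13e-06) and -1.93 for Il1rn (0.00274). Il1r1 had an interaction of 1.09 (limma adjusted p = 0.0384) and Il18 one of -0.86 (limma adjusted p = 0.0358). With the CD8 pairs averaged the Il1r1 and Il18 interactions no longer passed (adjusted p = 0.102 and 0.0669). Casp1 at 0.11 and Il1rap at -0.20 did not pass in either fit.

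**Figure D3:**
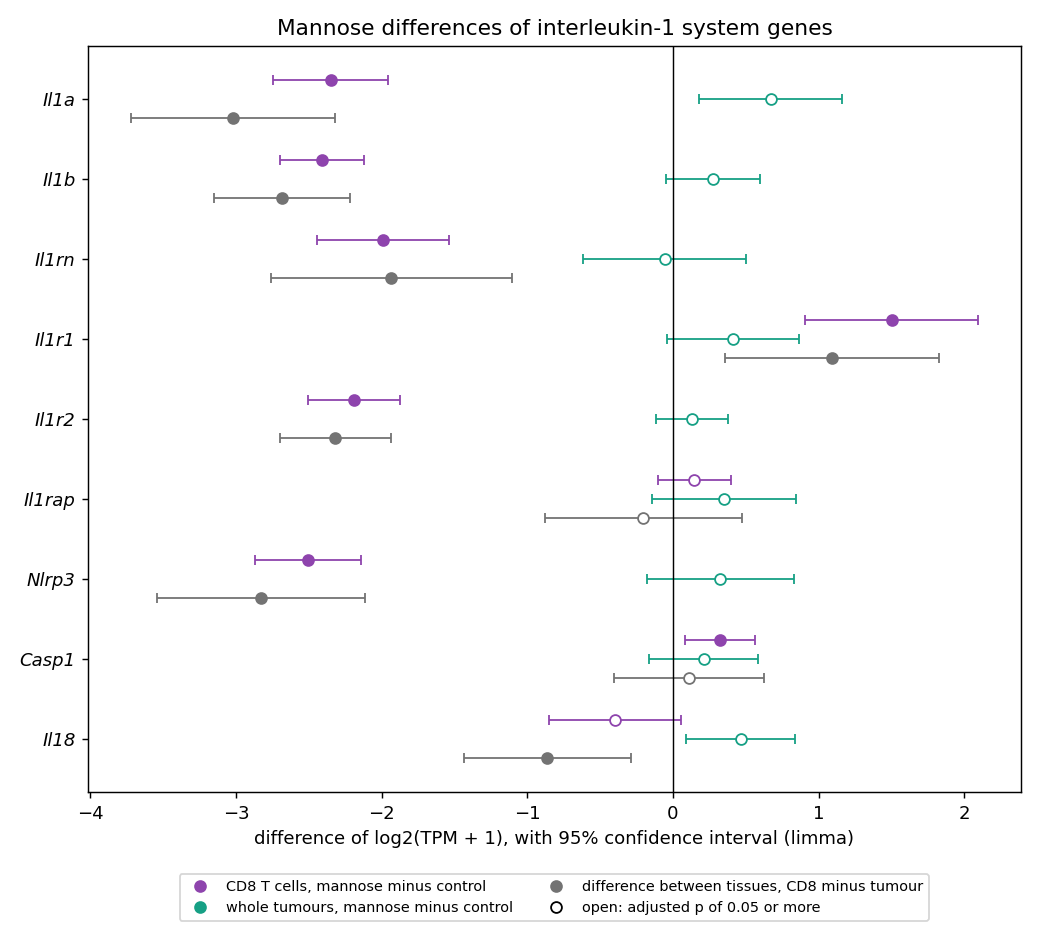
Differences of log2(TPM + 1) with 95% confidence intervals by limma, for CD8 libraries (mannose minus control), whole tumours (mannose minus control) and the difference between these; filled points have an adjusted p under 0.05. In CD8 libraries 5 genes lie between -2.51 and -1.99 and Il1r1 at 1.50, while all tumour points are open.

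The order of the genes by level also differed. In CD8 libraries Il1b led in both groups, at rank 351 of 14495 symbols with mannose and rank 87 of 13965 in controls by mean TPM. In CD8 controls Il1rn, Il1r2, Il1a, Nlrp3, Casp1, Il1rap, Il18 and Il1r1 followed in that order, and only Il1rn and Il1r2 overlapped as neighbours. With mannose the order was Il1b, Il1rn, Il1r2, Casp1, Il1a, Nlrp3, Il1rap, Il1r1 and Il18, with overlaps between Casp1 and Il1a and between Il1r1 and Il18. In tumours Il1rn led in both groups, at 105 ± 29.4 TPM with mannose and 113 ± 36.8 TPM in controls, followed by Il1b, Il1r2, Casp1, Il1r1, Il1rap, Il18, Nlrp3 and Il1a. In both tumour groups Il1rn and Il1b overlapped, as did Il1r1 and Il1rap, Il18 and Nlrp3, and Nlrp3 and Il1a. In mannose tumours Il1r2 and Casp1 overlapped too, and in control tumours Il1rap and Il18 did.

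Levels in sorted cells and tumours come from separately normalized tables and are set side by side without a test. With mannose, mean CD8 TPM over mean tumour TPM was 7.28 for Il1a, 4.03 for Il1b, 3.78 for Nlrp3 and 1.92 for Il1r2. In controls it was 70.2 for Il1a, 26.2 for Il1b, 28.7 for Nlrp3 and 9.73 for Il1r2. Il1r1 was the one gene of the 9 lower in CD8 libraries than in tumours in both groups, at 0.614 with mannose and 0.234 in controls.

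A further 59 genes of the pathway were followed by role, again read against the 34.9% of all genes that passed in CD8 libraries. Of 16 genes known to be induced by interleukin-1, 8 fell, 1 rose and 7 did not pass (median -0.69). Cxcl2, a neutrophil chemokine, had 269 ± 28.9 TPM with mannose and 1210 ± 346 TPM in controls, a log2 difference of -2.14 (limma adjusted p = 9.05e-04). Cxcl1, a related chemokine, changed by -1.81 (limma adjusted p = 0.00187) and Zc3h12a, an RNase that restrains inflammatory messages, by -1.47 (limma adjusted p = 0.00574). Ptges, which makes prostaglandin E2, was the gene that rose, with 66.1 ± 7.44 TPM with mannose and 16.2 ± 4.98 TPM in controls (log2 difference 2.00, limma adjusted p = 0.00187).

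Of 14 inflammasome genes tested in CD8 libraries 5 fell, 1 rose and 8 did not pass (median -0.45). Mefv, the sensor pyrin, had 3.77 ± 0.214 TPM with mannose and 20.4 ± 3.70 TPM in controls (log2 difference -2.16, limma adjusted p = 3.1e-04). Pycard, the adaptor ASC, changed by -0.98 (limma adjusted p = 0.0377), and Nek7, a partner of NLRP3, by 0.54 (0.0127). Nlrc4, a partner of NAIP proteins, changed by -0.90 (limma adjusted p = 0.0112). Nlrc4 and Nlrp1b, both among the 5 falls, were under 1 TPM in every CD8 mannose library. They met the filter of 1 TPM in 3 libraries through the controls alone, which favoured a fall. Of 16 signalling genes 4 fell, 1 rose and 11 did not pass (median -0.20). Those that fell furthest were Irak3, a brake on the receptor complex (-1.01, limma adjusted p = 0.0102), Irak2, of the IRAK family (-0.70, 0.0028), and Myd88, the adaptor (-0.58, 0.00618). Tab1, a TAK1 partner, rose (0.57, limma adjusted p = 0.0153).

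Of 5 further receptors 1 rose, 1 fell and 3 did not pass in CD8 libraries. Sigirr, a receptor that dampens the family's signalling, had 48.0 ± 6.76 TPM with mannose and 23.2 ± 3.36 TPM in controls (log2 difference 1.02, limma adjusted p = 0.00327). Il1rl2, the interleukin-36 receptor, changed by -0.68 (limma adjusted p = 0.0207). Of the 3 further ligands and binders tested 1 fell, Il36g (-1.52, limma adjusted p = 0.0102), and Il18bp, which binds interleukin-18, did not pass (-0.54, limma adjusted p = 0.0677). Il36a, Il36b, Il36rn and Il1f10 were below 1 TPM in every CD8 library and were not tested.

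Fewer of these genes passed with the sharing CD8 pairs averaged. In that fit, where 11.4% of all genes passed, 3 induced genes fell and 1 rose of 16, 2 inflammasome genes fell of 14, 2 signalling genes fell of 16, 1 receptor rose of 5 and 0 of 3 further ligands and binders passed. Cxcl2, Cxcl1, Ptges, Mefv, Irak2 and Sigirr kept their calls. Zc3h12a, Pycard, Nlrc4, Nek7, Irak3, Myd88, Tab1, Il1rl2 and Il36g kept their direction but no longer passed (limma adjusted p between 0.0513 for Il36g and 0.134 for Pycard). In the interaction fit with pairs averaged, the induced genes passed as lower in 5 and higher in 2 of 16 and the inflammasome genes as lower in 4 of 14, beside 3.81% of all genes as lower and 6.73% as higher. Those 4 include Nlrc4 and Nlrp1b, under 1 TPM in every CD8 mannose library. Both of these, and Cxcl1 among the 5 lower induced genes, were too low to be tested in tumours.

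Among these genes, none of those tested passed in whole tumours. Il36a, Il36b, Il36rn, Il1f10, Il1rl1, Il18r1, Nlrp1a, Nlrp1b, Nlrc4, Naip6, Cxcl1 and Csf3 were too low to be tested there. The list medians there were 0.50 for ligands and binders, 0.28 for receptors, 0.25 for inflammasome genes, 0.25 for signalling genes and 0.12 for induced genes, beside 0.12 over all genes. The smallest p of any listed gene was that of Il6, an induced cytokine, with 2.20 ± 0.240 TPM with mannose and 1.03 ± 0.311 TPM in controls (log2 difference 0.67, limma adjusted p = 0.754). Cxcl5, an induced chemokine, had 1.04 ± 0.367 TPM with mannose and 2.20 ± 1.04 TPM in controls (-0.62). The DNA sensor Aim2 differed by 0.49 and Pycard by 0.55, Il1rl2 by 0.71 and Il18rap, a chain of the interleukin-18 receptor, by 0.28. Tab3 and Tab2, TAK1 partners, differed by 0.36 and 0.37, and Il33, an alarmin, and Il18bp by 0.50 and 0.57. In the interaction fit the induced genes passed as lower in 6 and higher in 2 of 16, and the inflammasome genes as lower in 4 and higher in 0 of 14, beside 7.64% of all genes as lower and 11% as higher. Nlrc4 and Nlrp1b, under 1 TPM in every CD8 mannose library, are again among those 4. Like Cxcl1, among the 6 lower induced genes, they were too low to be tested in tumours, so the tumour side of their interaction rests on low values.

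**Figure D4:**
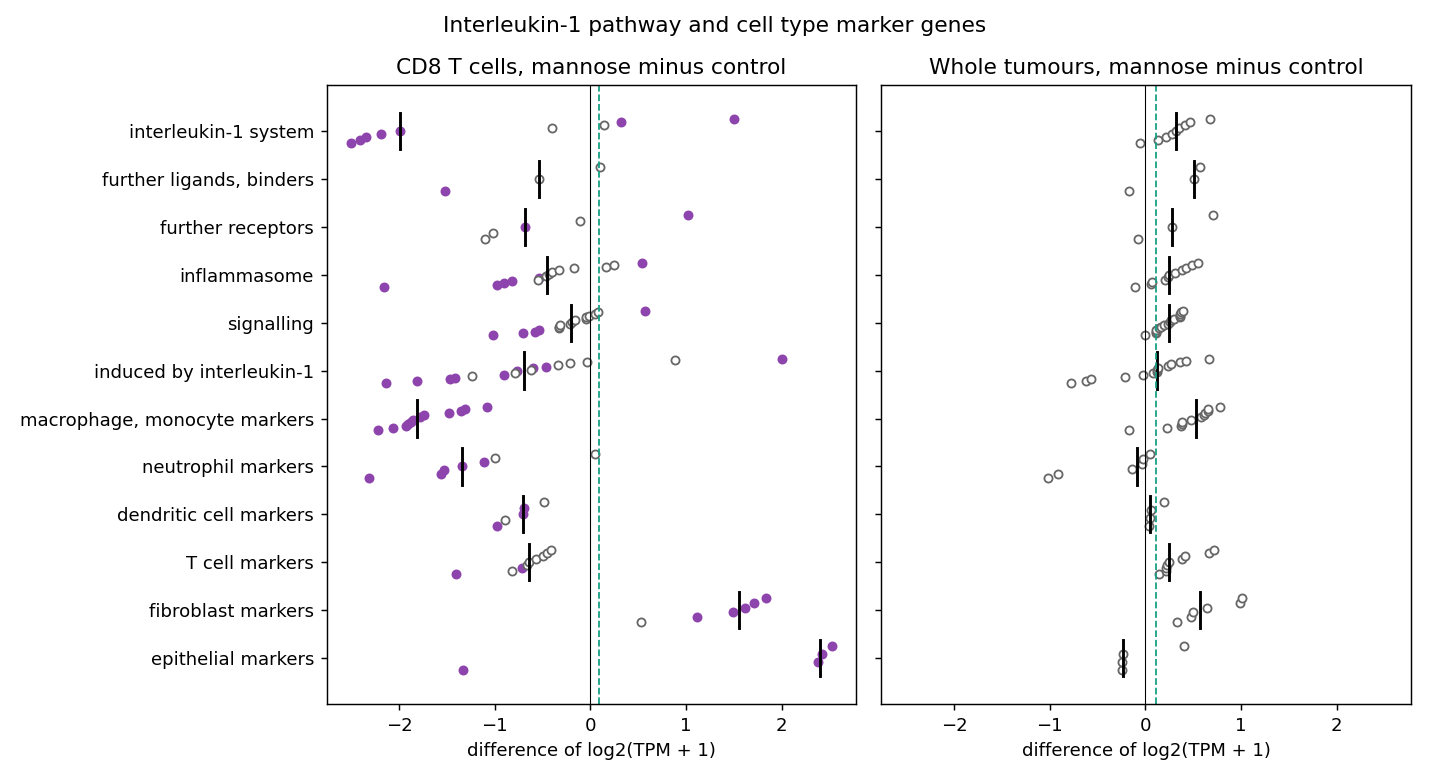
Log2 differences (mannose minus control, limma) of the pathway genes by role, in CD8 libraries and whole tumours; each point is a gene, filled where the adjusted p is under 0.05, black bars are list medians and the dashed line is the median of all genes. The 9 genes and the cell type markers are drawn for scale. Falls in CD8 libraries reach -2.14 among induced genes and -2.16 among inflammasome genes, and Ptges stands apart at 2.00.

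Across the 10 tumours, the genes most like Il1r1 among 9372 compared were Map3k7 (the kinase TAK1), Jak2 and Coa5, with Pearson r of log2 levels of 0.988, 0.987 and 0.983. Tumour control 1, low in Il1r1, weighs on these, and without the 2 tumours farthest from the median r was 0.893, 0.962 and 0.945. For Il18 they were Dnase2a, a lysosomal nuclease, Scp2 and Bcl2a1b, with r of 0.938, 0.936 and 0.913. Bcl2a1b belongs to a family of near-identical copies and its level is uncertain. For Il1b they were Sirpb1c, Cbr1 and Pop4, with r of 0.910, 0.859 and 0.830, and without the 2 farthest tumours 0.637, 0.743 and 0.654. These 10 libraries pool both groups and their unequal cell content, so the values describe likeness only.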

How the data were processed

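Bulk RNA-seq of 10 whole-tumour and 6 sorted CD8 libraries was used as the authors deposited it, 1 table of TPM per library. Tools named in the submitters' processing notes are fastp, HISAT and RSEM, and the build is GRCm39; their versions and roles are not given there. Entries sharing a symbol were summed. TPM keep no library totals, so depth is unknown and no count test was run. Groups came from the labels. Genes with at least 1 TPM in 5 tumour, 3 CD8 or, for the interaction, 3 of all 16 libraries were tested with limma 3.58.1 (variance trend, R 4.3.3) on log2(TPM + 1), with Benjamini-Hochberg adjustment over all genes and a threshold of 0.05. All 9 genes passed these filters. The fits were tested on simulated data. Ratios within a library were tested by 2-sided exact permutation; those to Casp1, Cd14, Csf1r and S100a8 and of Il1a to Il1b were added to the planned pair. The genes, lists and alternatives were chosen with earlier results of these data known. Further pathway genes named are up to 3 past the threshold per role and direction, or the 2 with the smallest p where fewer than 2 passed. Alternatives covered the pseudocount, filter, scaling, library weights, a replicate block, averaged CD8 pairs and libraries left out. Figures used matplotlib 3.10.9.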

Additional observations from a re-analysis of the deposited data

Results flagged for a closer look

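Single tumours lay far from the rest of their group in 4 of 18 combinations of gene and group examined, at a 95% level, where chance alone picks out about 5% of groups. Tumour control 1 was low for 3 genes. It had 5.88 TPM of Il1r1 (nearest control 12.6), 5.38 TPM of Il1rap (nearest 11.7) and 1.94 TPM of Nlrp3 (nearest 4.61). Tumour mannose 3 was high for Il1rn, with 156 TPM against 104 TPM in the nearest mannose tumour.

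The mannose difference in CD8 libraries minus that in tumours passed the interaction test in 7 of the 9 genes, as it did in 18.7% of 15498 genes. It was -3.02 for Il1a, -2.83 for Nlrp3, -2.69 for Il1b, -2.32 for Il1r2, -1.93 for Il1rn, -0.86 for Il18 and 1.09 for Il1r1 on the log2 scale. With the CD8 pairs averaged Il1r1 and Il18 did not pass (limma adjusted p = 0.102 and 0.0669), and in fits that left out a library they did not pass in 10 and 9 of 16.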

How the results depend on the processing

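Among the CD8 differences, Il1a, Il1b, Il1rn, Il1r2, Nlrp3 and Il1r1 kept their direction and call in all 10 alternative settings and all 6 fits that left out a library. Casp1 lost its call in 7 of 10 settings and 5 of 6 leave-outs. The Il1r1 interaction was lost in 2 of 9 settings and 10 of 16 leave-outs, and that of Il18 in 4 of 9 and 9 of 16. Directions turned in these cases, none of which passed: Il1rap in CD8 libraries under quantile normalization (-0.0431), Il18 in CD8 libraries scaled to T cell markers (0.24), the Il1rap interaction without tumour control 1 and tumour mannose 3 (0.0391), and that interaction over leave-outs (-0.29 to 0.0124). Il1rn in tumours ran from -0.28 to 0.0806 over leave-outs. The Il1rn to Il1b difference in tumours ran from -0.53 to -0.27 over leave-outs. Its unadjusted exact permutation p was 0.00794 without tumour control 1 and 0.198 to 0.318 in the other leave-outs. Ratios with pairs averaged were added after seeing the data. The causes were not tested.

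The main fits did not pair libraries by replicate number. Deviations of same-numbered tumours from their group means correlated at -0.511 to 0.28, beside -0.346 to 0.478 for tumours of different number. In CD8 libraries the values were 0.0565 to 0.163 for the same number and -0.156 to 0.115 for different numbers. With so few CD8 libraries these values cannot decide whether the numbers mark pairs. With the replicate number as a block, 0 of the 9 genes passed in tumours, 6 in CD8 libraries (Casp1 lost, adjusted p = 0.0818) and 6 in the interaction (Il18 lost, 0.0677). Over all genes the block gave 0 of 13282, 4838 of 14280 and 2493 of 15498.

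Over all genes, the 4980 CD8 calls became 8631 with array weights, 1652 with pairs averaged, 3068 without CD8 mannose 1 and 2803 without CD8 mannose 2. The 2896 interaction calls became 6323 with array weights, 1673 with pairs averaged and 1905 without CD8 mannose 1. In tumours 1 gene passed without tumour mannose 4. The CD8 split of 3306 rises and 1674 falls was 2673 and 2305 under quantile normalization, 2643 and 2488 under median-ratio scaling, and 5289 and 339 when scaled to T cell markers, which put the median of all genes at 0.71, beside 0.09 unscaled. TPM without totals leave the error of low values, such as Il1r1 in CD8 controls, unknown.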
